A study of Mus musculus with 24 samples.

Results

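The hypoxia-inducible factor (HIF) system of C2C12 cells was described here through the transcripts of 9 genes, out of 24043 genes in the deposited table. The 9 genes were chosen by name for their role, with earlier results of these data known. They are the HIF subunit genes Hif1a, Epas1, Hif3a and Arnt, the prolyl hydroxylase genes Egln1, Egln2 and Egln3, the asparaginyl hydroxylase gene Hif1an, and the von Hippel-Lindau gene Vhl. Of these, 7 passed a filter on low values (1 condition or more had to average 1 FPKM or higher) and were tested. Epas1 and Hif3a stayed below that level in every library and are given as values. FPKM stands for fragments divided by the length of the transcript and by the sequenced total, so levels of different genes are set side by side per length.

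C2C12 is an established mouse myoblast line, whose cells divide in rich medium and fuse into myotubes when serum is reduced. Cells were kept in growth medium (DMEM with 10% fetal bovine serum) or in differentiation medium (DMEM with 2% horse serum and an ITS supplement, renewed on days 2, 3 and 4). Each medium was combined with 21% oxygen (normoxia) or 2% oxygen (hypoxia), and each of the 4 conditions has an RNA-seq library A and a library B, which the submitters call biological replicates. The 8 RNA-seq libraries are part of a series of 24 samples that also covers the histone mark H3K27me3, whose libraries were not analysed here. All cells were C2C12, with no genetic change named in the labels. The length of the hypoxic exposure and the day of harvest are not given in the sources used here.

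HIF is a pair of proteins, an oxygen-regulated alpha subunit (encoded by Hif1a, Epas1 or Hif3a) and the constitutive beta subunit encoded by Arnt. In the presence of oxygen, the prolyl hydroxylases encoded by the Egln genes mark the alpha subunit, the VHL protein binds the mark, and a ubiquitin ligase built around VHL sends the subunit to the proteasome. Factor inhibiting HIF, encoded by Hif1an, hydroxylates an asparagine and so blocks the binding of coactivators. The main control is therefore on the protein, which these data do not measure. Some prolyl hydroxylase genes are themselves known HIF targets.

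At 2% oxygen, transcripts of the prolyl hydroxylases Egln1 and Egln3 rose several-fold in growth medium, and Vhl rose in both media. Hif1a fell in both media, but its call in each medium was lost under some alternative settings. Differentiation medium alone, at 21% oxygen, raised Egln3 by 7.41-fold, and it also raised Hif1an and lowered Egln2. In hypoxic differentiation medium Hif1an and Egln2 stood near their growth medium levels. Egln1 was the member whose response to oxygen was large in both media.

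The libraries carried the markers of the line, and most markers of other cell types were near 0. The summed level of 5 myoblast lineage markers (Myod1, Myf5, Des, Cdh15 and Pax7) was 414 to 492 FPKM in normoxic growth medium, 780.4 to 794 in the normoxic differentiation libraries, 123 to 130.1 in hypoxic growth medium and 66.6 to 94.8 in hypoxic differentiation medium. The higher sum with differentiation in normoxia was not shared by all 5 genes. Des and Myf5 were called higher (log2 changes of 1.19 and 0.56, adjusted p of 0.00605 and 0.000711 from limma). Pax7 was called lower (−0.76, adjusted p of 0.000338 from limma), and Myod1 and Cdh15 were not called. The summed level of 5 myotube markers (Myog, Ckm, Myh3, Acta1 and Tnnt3) was 7004 and 7014 FPKM in the normoxic differentiation libraries and at most 28.8 in the other libraries, so the libraries labelled hypoxic differentiation carry little myotube RNA. Throughout, differentiation in normoxia or in hypoxia names the comparison of differentiation medium with growth medium at that oxygen level. It does not say that the cells became myotubes. All 5 endothelial markers, 3 of 4 epithelial markers and 4 of 5 leukocyte markers were under 1 FPKM in every library, and Emr1 and Cd3e were at 0 throughout. The epithelial keratin gene Krt14 was above that level, at 1.41 and 1.27 FPKM in normoxic growth medium, 2.16 and 2.29 in hypoxic growth medium, 0 in both normoxic differentiation libraries, and 1.33 and 3.49 in hypoxic differentiation medium, where it was called higher than in normoxia (1.69, adjusted p of 0.00158 from limma). So was the lysosomal gene Cd68, at 25.8 and 42.8 FPKM in hypoxic differentiation medium against at most 3.57 elsewhere, where the pan-leukocyte gene Ptprc did not exceed 0.0137 FPKM. In bulk RNA, fewer cells of a type and less RNA per cell cannot be told apart. The 2 hypoxic differentiation libraries stood apart from each other: the correlation of log2(FPKM + 1) between them was 0.958, against 0.975 to 0.983 within the other conditions. The summed level of 5 proliferation markers was 22.4 FPKM in library A and 121.6 in library B. Calls of members are given without each of these libraries where that changes them, and counts of pathway lists where it moves the number of called genes by over 1.5 times.

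**Figure D1:**
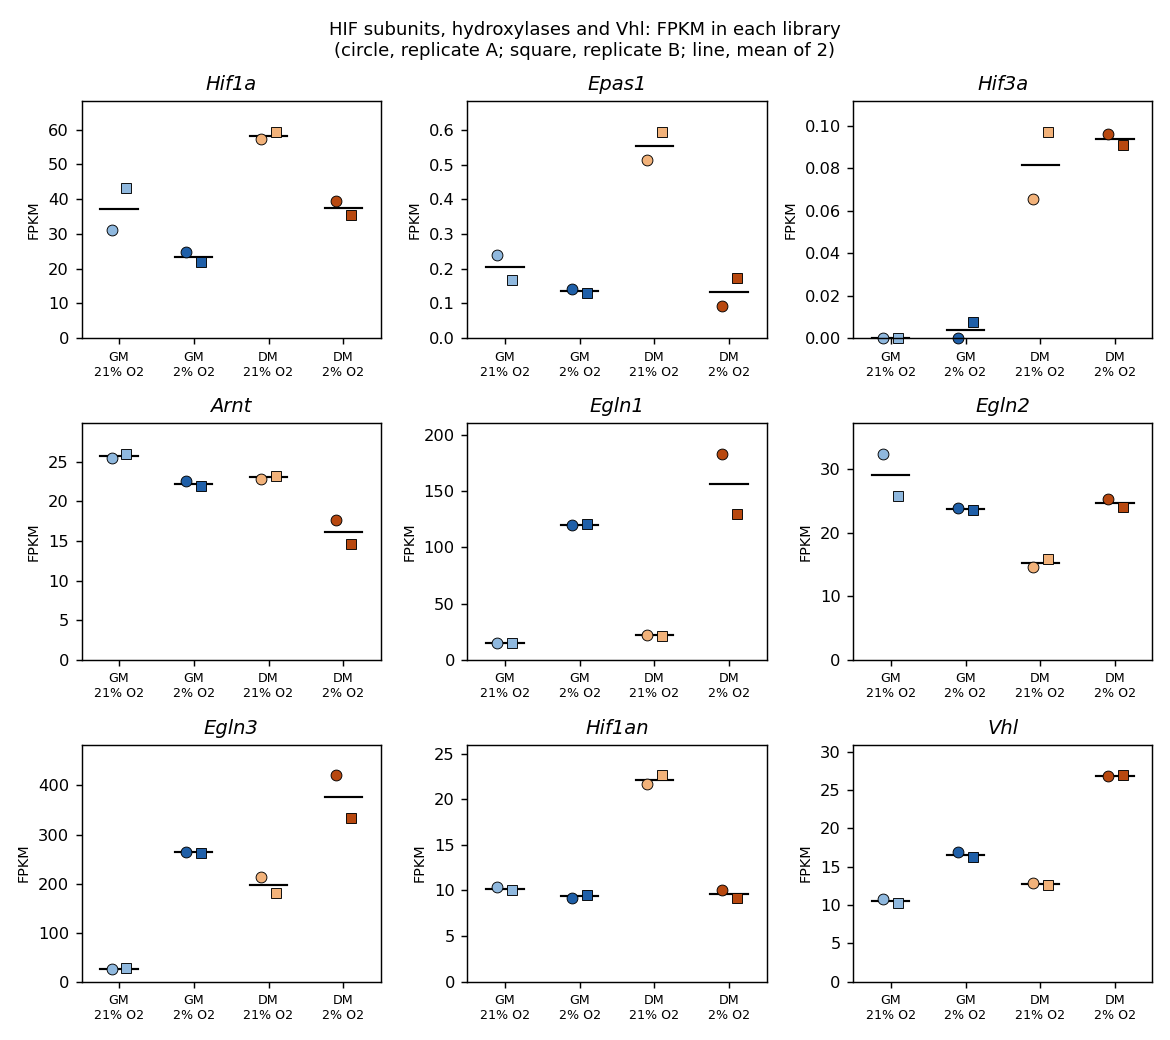
FPKM of each of the 9 genes (vertical axes, linear and starting at 0, scaled per gene) in the 4 conditions (horizontal axes); circles are library A, squares library B, lines the mean of 2. Egln1 separates by oxygen, Hif1an separates normoxic differentiation medium (21.7 and 22.6 FPKM) from the rest, and Egln3 is low in normoxic growth medium alone (25.8 and 27.4 FPKM).

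Hif1a, which encodes the main oxygen-regulated alpha subunit, had the highest mean of the members in normoxic growth medium. In library A of that condition Egln2 was slightly higher, at 32.5 FPKM. The Hif1a level was 31.2 and 43.1 FPKM in the normoxic growth libraries and 24.8 and 22.0 FPKM in the hypoxic growth libraries. It was 57.2 and 59.4 FPKM in the normoxic differentiation libraries and 39.5 and 35.3 FPKM in hypoxic differentiation medium. Both hypoxic libraries lay below both normoxic libraries of the same medium, and both differentiation libraries lay above both growth libraries at the same oxygen. The order of the conditions was hypoxic growth, normoxic growth, hypoxic differentiation and normoxic differentiation, and the libraries of the 2 conditions in the middle overlapped. Hypoxia changed Hif1a by −0.63 ± 0.15 (log2 scale, SE, n = 2 against 2) in growth medium, with an adjusted p of 0.0173 from limma. The change in differentiation medium was −0.63 ± 0.15, with an adjusted p of 0.0104. The differences correspond to 1.59-fold and 1.56-fold lower mean FPKM. Differentiation medium raised Hif1a by 0.65 ± 0.15 in normoxia (adjusted p of 0.00866 from limma) and by 0.66 ± 0.15 in hypoxia (adjusted p of 0.0161). The response to oxygen differed between the media by 0.00, with a 95% interval of −0.52 to 0.52, which is too wide to exclude a difference of moderate size. The wide spread of Hif1a in normoxic growth medium (SD of 8.42 FPKM, n = 2) limits these tests. The call for hypoxia in growth medium was lost when the libraries were rescaled by the median of ratios (adjusted p of 0.0543) or the upper quartile (0.0785), and without hypoxic growth library A (0.0536) or B (0.103). Without normoxic differentiation library B, hypoxia in differentiation medium gave 0.064 and differentiation in normoxia 0.0567. Without hypoxic growth library A or B, differentiation in hypoxia gave 0.0524 or 0.1. An annotated long noncoding RNA gene, Gm15283, overlaps Hif1a, and its reads cannot be told apart from those of Hif1a if counting ignored strand, which is not stated.

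Epas1 encodes the alpha subunit of HIF-2, which is prominent in endothelium. Its level was 0.241 and 0.167 FPKM in normoxic growth medium and 0.141 and 0.129 FPKM in hypoxic growth medium. In the normoxic differentiation libraries it was 0.515 and 0.596 FPKM, above every other library, and in hypoxic differentiation medium it was 0.0920 and 0.172 FPKM. The Hif1a level was on average 105 to 318 times the Epas1 level over the 4 conditions. The ratio varied widely between replicates, at 130 and 258 in normoxic growth medium and 430 and 206 in hypoxic differentiation medium. It was 176 and 170 in hypoxic growth medium and 111 and 99.7 in the normoxic differentiation libraries. With the filter on low values removed, the fitted Epas1 change was 0.37 for differentiation in normoxia (adjusted p of 0.00173 from limma) and −0.46 for hypoxia in differentiation medium (adjusted p of 0.000716). Hif3a encodes a further alpha subunit, with splice forms that act as inhibitors. It was listed at 0 in both normoxic growth libraries and in hypoxic growth library A, and at 0.00761 FPKM in library B. It reached 0.0657 and 0.0973 FPKM in normoxic and 0.0962 and 0.0912 FPKM in hypoxic differentiation medium. The Hif3a libraries of the 2 media did not overlap at either oxygen level. Unfiltered fits gave 0.11 and 0.12 on the log2(FPKM + 1) scale for differentiation in normoxia and in hypoxia (adjusted p of 0.00455 and 0.00775 from limma). These levels are so low that absolute depth, which is unknown here, sets how far they can be read.

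Arnt encodes the shared beta subunit and varied least among the tested members. Its level was 25.4 and 26.0 FPKM in normoxic growth medium, 22.5 and 21.9 in hypoxic growth medium, 22.8 and 23.2 in the normoxic differentiation libraries, and 17.7 and 14.6 in hypoxic differentiation medium. The hypoxic differentiation libraries were the lowest of all 8. Arnt fell by 0.49 ± 0.10 with hypoxia in differentiation medium (adjusted p of 0.00452 from limma) and by 0.44 ± 0.10 with differentiation in hypoxia (adjusted p of 0.0139). The second call was lost without hypoxic growth library A (0.0834) or B (0.0692) and when the 4 hypoxic libraries were fitted alone (0.0655). The change with hypoxia in growth medium, −0.20 with a 95% interval of −0.44 to 0.04, did not pass the test (adjusted p of 0.153), nor did the change with differentiation in normoxia, −0.15 with an interval of −0.39 to 0.09 (adjusted p of 0.216). The difference between media in the response to oxygen was −0.29 (adjusted p of 0.125), and it passed without hypoxic differentiation library A (−0.42, adjusted p of 0.0089) and with median-of-ratios scaling (−0.60, adjusted p of 0.0355). The change with hypoxia in growth medium passed without hypoxic differentiation library A (0.0298) or B (0.0319). The ratio of Hif1a to Arnt FPKM was 1.00 to 1.66 in growth medium and 2.24 to 2.56 in differentiation medium.

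Egln1 encodes PHD2, the prolyl hydroxylase regarded as the main oxygen sensor for HIF-1. Its level was 15.1 and 15.3 FPKM in normoxic growth medium and 119 and 120.3 FPKM in hypoxic growth medium. It was 22.2 and 21.4 FPKM in the normoxic differentiation libraries and 183 and 130 FPKM in hypoxic differentiation medium. Every hypoxic library was more than 5 times every normoxic one. The mean rose 7.87-fold with hypoxia in growth medium (2.90 ± 0.15 on the log2 scale, adjusted p of 5.98e-05 from limma) and 7.18-fold in differentiation medium (2.77 ± 0.15, adjusted p of 1.07e-05). These were the fitted changes ranked 68 and 171 from the highest among 12389 genes. The 2 responses differed by −0.13, with a 95% interval of −0.64 to 0.38 (adjusted p of 0.629). That comparison turned on 1 library, since it was −0.38 (adjusted p of 0.0107) without hypoxic differentiation library A and 0.12 without library B. Differentiation raised Egln1 by 0.49 ± 0.15 in normoxia (adjusted p of 0.0251), a call that was lost when any of the 4 normoxic libraries was left out (adjusted p of 0.0821 to 0.112). In hypoxia the change with differentiation was 0.36 (adjusted p of 0.0992), and it was 0.61 (adjusted p of 0.00144) without hypoxic differentiation library B and 0.11 (adjusted p of 0.213) without library A. The annotated long noncoding RNA gene Gm46060 overlaps Egln1, with the same limit on strand as for Hif1a.

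Egln3 encodes PHD3, a prolyl hydroxylase known to be strongly induced by HIF. Its level was 25.8 and 27.4 FPKM in normoxic growth medium and 264 and 262 FPKM in hypoxic growth medium. It was 214 and 180.5 FPKM in the normoxic differentiation libraries and 420.2 and 333 FPKM in hypoxic differentiation medium. Only the normoxic growth libraries were low, and the libraries of the 4 conditions did not overlap. In growth medium hypoxia raised Egln3 by 3.26 ± 0.13 (9.91-fold, adjusted p of 2.51e-05 from limma), the change ranked 48 of 12389 from the highest. In normoxia differentiation medium raised it by 2.84 ± 0.13 (7.41-fold, adjusted p of 5.91e-06). Hypoxia added less in differentiation medium, 0.93 ± 0.13 (1.91-fold, adjusted p of 0.000834). The difference between the 2 responses to oxygen was −2.33 ± 0.19 (adjusted p of 0.000125), and it passed under every alternative run. Differentiation in hypoxia raised Egln3 by 0.51 ± 0.13 (1.43-fold, adjusted p of 0.0227), but this call was lost with median-of-ratios scaling (0.0697), upper-quartile scaling (0.0946), array weights (0.0669) or the 4 hypoxic libraries alone (0.0629), and without hypoxic growth library A (0.0976) or B (0.106).

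Egln2 encodes PHD1, the prolyl hydroxylase gene not known for induction by hypoxia. Its level was 32.5 and 25.8 FPKM in normoxic growth medium and 23.9 and 23.5 FPKM in hypoxic growth medium. It was 14.6 and 15.9 FPKM in the normoxic differentiation libraries and 25.3 and 24.0 FPKM in hypoxic differentiation medium. The normoxic differentiation libraries were the lowest of all 8. Differentiation in normoxia lowered Egln2, with a change of −0.88 ± 0.12 (1.91-fold lower, adjusted p of 0.000637 from limma), while hypoxia in differentiation medium raised it by 0.66 ± 0.12 (1.62-fold, adjusted p of 0.00251). In growth medium the change with hypoxia was −0.28, with a 95% interval of −0.56 to 0.01 (adjusted p of 0.105), and it passed without normoxic growth library B (−0.44, adjusted p of 0.0204). The responses to oxygen differed between the media by 0.94 ± 0.17 (adjusted p of 0.00361). The change with differentiation in hypoxia was 0.05, with an interval of −0.23 to 0.34 (adjusted p of 0.75).

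The proximal promoters of the 3 prolyl hydroxylase genes are shown because Egln1 and Egln3 rose together with hypoxia in growth medium while Egln2 did not pass the test there. HIF binds the core letters ACGTG or GCGTG of the hypoxia response element. The sequences come from RefSeq on GRCm38.p6, not the build of the deposited data, and run from 250 bases before to 10 bases after the annotated start, 5′ to 3′ on the gene's strand. Capitals mark ACGTG or GCGTG on either strand. All 3 genes lie on the minus strand, Egln1 at chr8:124949245-124949504, Egln3 at chr12:54203865-54204124 and Egln2 at chr7:27166793-27167052.
Egln1: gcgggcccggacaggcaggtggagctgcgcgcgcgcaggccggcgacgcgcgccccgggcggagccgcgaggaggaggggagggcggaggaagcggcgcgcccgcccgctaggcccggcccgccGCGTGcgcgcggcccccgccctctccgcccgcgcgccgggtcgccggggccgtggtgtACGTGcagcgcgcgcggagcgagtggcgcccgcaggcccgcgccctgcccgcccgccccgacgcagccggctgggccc
Egln3: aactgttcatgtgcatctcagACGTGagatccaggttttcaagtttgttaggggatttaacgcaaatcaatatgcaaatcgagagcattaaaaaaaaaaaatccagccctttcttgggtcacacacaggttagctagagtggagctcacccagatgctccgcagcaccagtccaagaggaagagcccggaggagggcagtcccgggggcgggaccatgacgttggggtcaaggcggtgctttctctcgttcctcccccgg
Egln2: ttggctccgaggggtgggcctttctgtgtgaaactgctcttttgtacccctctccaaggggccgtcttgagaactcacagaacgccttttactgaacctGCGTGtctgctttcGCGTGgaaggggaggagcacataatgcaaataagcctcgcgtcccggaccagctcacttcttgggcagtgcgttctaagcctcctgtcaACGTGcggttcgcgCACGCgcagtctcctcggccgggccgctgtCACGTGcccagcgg
Counted from the start, Egln1 has GCGTG beginning at −126 and ACGTG at −68, both on the gene's strand. Egln3 has 1 match, ACGTG at −229. The Egln2 window has 6 matches, of which the pair at −4 and −3 are the 2 strands of CACGTG and overlap. Egln2, with the most matches, had no called rise with hypoxia in growth medium and a called rise of 0.66 in differentiation medium. In the longer window that reaches 50 bases past the start, 7 of the 9 promoters of the 8 members found in the RefSeq table (Egln2 has a second promoter there) held ACGTG or GCGTG, as did 43.8% of 32841 promoters of the same length. ACGTG alone was in 4 of the 9, against 19.6% of all. The Hif1a promoter held 3 matches, 2 of them the strands of 1 CACGTG, and Vhl and Hif1an held no match. A match of letters is a description of the window and not a measured binding site.

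**Figure D2:**
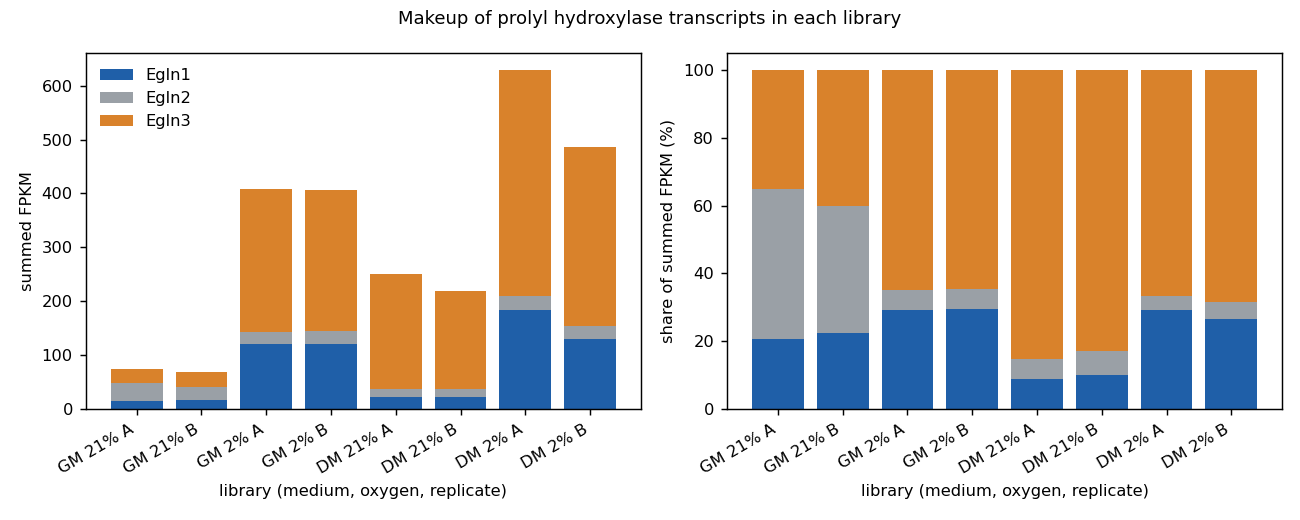
Summed FPKM of Egln1, Egln2 and Egln3 (left panel, linear axis from 0) and the percent of that sum from each gene (right panel) in each of the 8 libraries, labelled by medium, oxygen and replicate. Egln2 holds 37.6% and 44.3% of the sum in normoxic growth medium and at most 7.31% in the other libraries, and Egln3 holds 82.9% and 85.3% in the normoxic differentiation libraries.

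The makeup of the prolyl hydroxylase transcripts differed by condition, as the stacked bars of the 3 genes show. Their summed level was 73.4 and 68.4 FPKM in normoxic growth medium, 407.5 and 406 in hypoxic growth medium, 250.4 and 218 in the normoxic differentiation libraries, and 629 and 487 in hypoxic differentiation medium. In normoxic growth medium the sum was spread over all 3 genes, with Egln1 at 20.6% and 22.4%, Egln2 at 44.3% and 37.6%, and Egln3 at 35.2% and 40.0%. Hypoxia gave nearly the same makeup in both media, with Egln3 at 64.6% to 68.5% and Egln1 at 26.6% to 29.6%. Normoxic differentiation medium had another makeup, with Egln3 at 85.3% and 82.9% and Egln1 at 8.86% and 9.82%. The ratio of Egln3 to Egln1 FPKM was 9.63 and 8.44 there and between 1.71 and 2.57 in the 6 other libraries. Relative to Hif1a, the summed level was 1.59 to 2.35 times in normoxic growth medium, 3.67 to 4.38 times in the normoxic differentiation libraries and 13.8 to 18.5 times in the 4 hypoxic libraries. These sums and ratios are descriptions and were not tested.

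Hif1an encodes factor inhibiting HIF. Its level was 10.3 and 10.0 FPKM in normoxic growth medium, 9.22 and 9.50 in hypoxic growth medium, 21.7 and 22.6 in the normoxic differentiation libraries, and 10.0 and 9.17 in hypoxic differentiation medium. The normoxic differentiation libraries alone stood apart, and the hypoxic libraries of the 2 media overlapped. Differentiation in normoxia raised Hif1an by 1.05 ± 0.09 (2.18-fold, adjusted p of 6.48e-05 from limma). Hypoxia in differentiation medium changed it by −1.13 ± 0.09 (2.31-fold lower, adjusted p of 4.48e-05). In growth medium the change with hypoxia was −0.11, with a 95% interval of −0.31 to 0.09 (adjusted p of 0.335), and with differentiation in hypoxia it was 0.03, with an interval of −0.17 to 0.23 (adjusted p of 0.809). The responses to oxygen differed between the media by −1.02 ± 0.12 (adjusted p of 0.000635). Myotube markers were highest in the same 2 libraries, at 7004 and 7014 FPKM in sum, and their part in the result was not tested.

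Vhl encodes the protein that recognises hydroxylated alpha subunits. Its level was 10.7 and 10.2 FPKM in normoxic growth medium, 16.9 and 16.2 in hypoxic growth medium, 12.8 and 12.6 in the normoxic differentiation libraries, and 26.9 in both hypoxic differentiation libraries. The 4 conditions did not overlap, and the order was normoxic growth, normoxic differentiation, hypoxic growth and hypoxic differentiation. Hypoxia raised Vhl by 0.61 ± 0.08 in growth medium (1.58-fold, adjusted p of 0.00121 from limma) and by 1.02 ± 0.08 in differentiation medium (2.11-fold, adjusted p of 4.21e-05). Differentiation in hypoxia raised it by 0.67 ± 0.08 (1.62-fold, adjusted p of 0.00124). The smaller rise with differentiation in normoxia, 0.26 ± 0.08 (adjusted p of 0.0216), was lost without normoxic growth library B (0.0698) or normoxic differentiation library A (0.104) or B (0.0785). The larger response to oxygen in differentiation medium, a difference of 0.41 ± 0.11 (adjusted p of 0.0172), depended on the scale of the libraries. It was 0.11 (adjusted p of 0.493) with median-of-ratios scaling and 0.20 (adjusted p of 0.217) with upper-quartile scaling, and leaving out any 1 of the hypoxic growth or normoxic differentiation libraries gave an adjusted p of 0.0522 to 0.0737.

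**Figure D3:**
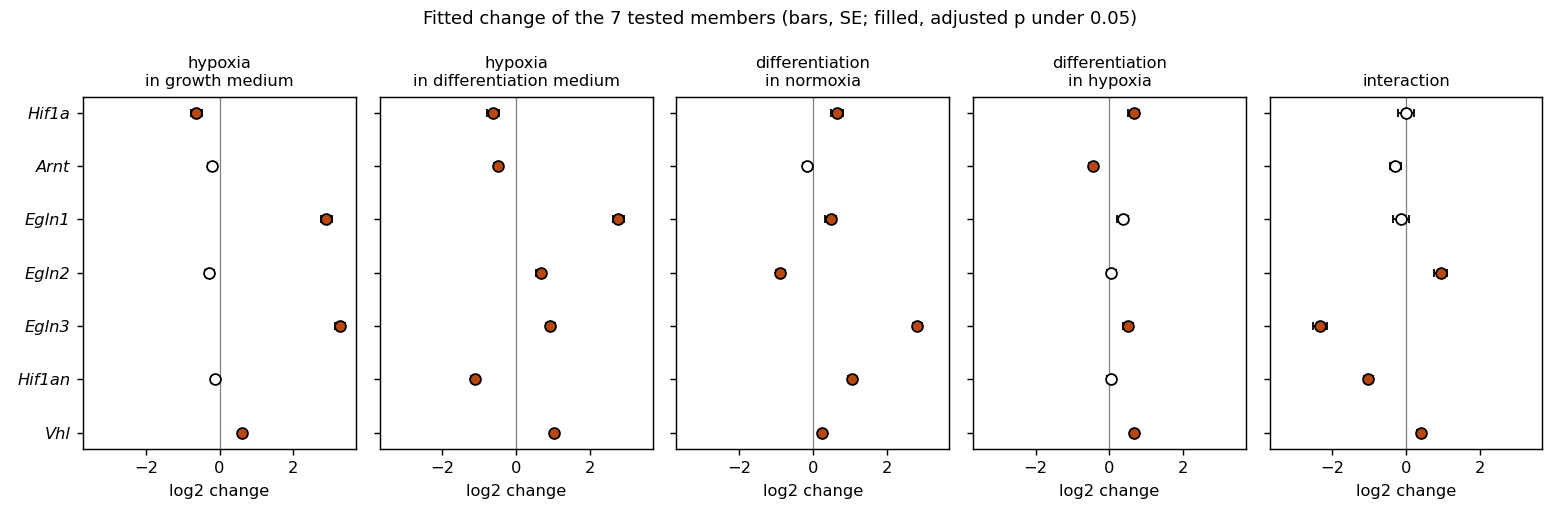
Fitted log2 change (horizontal axes) of the 7 tested genes in the 5 comparisons; bars are SEs and filled points have an adjusted p under 0.05. Egln1 and Egln3 lie at 2.90 and 3.26 for hypoxia in growth medium, and Egln3 lies at −2.33 for the interaction, the response to oxygen in differentiation medium minus that in growth medium.

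Across the 7 tested members, counts were read against the share of all 12389 genes that passed the same limma test. With hypoxia in growth medium, 3 members rose (Egln1, Egln3 and Vhl) and 1 fell (Hif1a), while 41.4% of all genes were called, 13.5% higher and 28.0% lower. With hypoxia in differentiation medium, 4 rose (Egln1, Egln2, Egln3 and Vhl) and 3 fell (Hif1a, Arnt and Hif1an), against 65.2% of all genes, 37.5% higher and 27.7% lower. With differentiation in normoxia, 5 rose (Hif1a, Egln1, Egln3, Hif1an and Vhl) and 1 fell (Egln2), against 66.5% of all genes, 25.5% higher and 41.0% lower. With differentiation in hypoxia, 3 rose (Hif1a, Egln3 and Vhl) and 1 fell (Arnt), against 40.9% of all genes, 23.3% higher and 17.6% lower. For the interaction, 2 members were higher (Egln2 and Vhl) and 2 lower (Egln3 and Hif1an), against 54.1% of all genes, 35.4% higher and 18.7% lower. With such shares of the genome called, the number of members called was not tested and is not read as a result. The members are described by the size and direction of their changes. The number of members called for differentiation in hypoxia was 1 without hypoxic growth library A and 1 without library B. For differentiation in normoxia it was 3 without normoxic differentiation library B.

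The median change of all tested genes was not 0 on the deposited scale. It was −0.14 for hypoxia in growth medium, 0.15 for hypoxia in differentiation medium, −0.20 for differentiation in normoxia, 0.07 for differentiation in hypoxia and 0.27 for the interaction. Median-of-ratios scaling brought these to between −0.04 and 0.03, and small changes of members are best read relative to this shift. Under that scaling the share of calls that were higher went from 32.6% to 43.4% for hypoxia in growth medium, from 57.5% to 46.5% for hypoxia in differentiation medium, from 38.4% to 53.6% for differentiation in normoxia and from 65.5% to 47.3% for the interaction. With upper-quartile scaling the shares were 49.3% for hypoxia in growth medium, 54.8% for hypoxia in differentiation medium, 45.6% for differentiation in normoxia and 53.6% for the interaction. For differentiation in hypoxia the share was 56.9% as deposited, 53.0% by median of ratios and 48.3% by upper quartile. No call of a member turned its direction under either scaling.

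The genes whose pattern was most like a member's were taken by Pearson's r on log2(FPKM + 1) over the 8 libraries, among 7520 genes with a mean of at least 10 FPKM in their highest condition. The 8 points are 4 conditions with 2 libraries each, and all genes share these libraries, so r describes the pattern only. Egln1 was most like P4ha1 (r = 0.9998), Pfkp (0.9988) and P4ha2 (0.9981). P4ha1 and P4ha2 encode collagen prolyl hydroxylases and Pfkp a phosphofructokinase of glycolysis. P4ha1 stood at 43.1 and 45.3 FPKM in normoxic growth medium, 278 and 273 in hypoxic growth medium, 60.8 and 58.6 in the normoxic differentiation libraries, and 399.9 and 283 in hypoxic differentiation medium, high in the same 4 libraries as Egln1. Egln3 was most like Gys1 (0.9976), Hk2 (0.9956) and Car6 (0.9948), which encode muscle glycogen synthase, hexokinase 2 and a carbonic anhydrase. Hk2 was at 5.80 and 6.01 FPKM in normoxic growth medium and between 53.2 and 90.4 FPKM in all other libraries. Hif1an was most like Ckm (0.9994), Tnnt3 (0.9988) and Smyd1 (0.9982), which encode muscle creatine kinase, fast troponin T and a muscle methyltransferase. Ckm was at 399.7 and 421 FPKM in the normoxic differentiation libraries and at most 1.23 FPKM elsewhere, a far larger range than that of Hif1an. Hif1a was most like Syncrip (0.9917), Ankfy1 (0.986) and Gid8 (0.9835), and Vhl was most like Tgoln1 (0.996), Pgrmc2 (0.996) and Me2 (0.995). Arnt and Egln2 spanned less than 1 on the log2 scale over the condition means and were not compared. By Spearman's rho, 5 to 19 genes were tied at 1 for Hif1a, Egln1, Egln3 and Vhl, so no first 3 could be named for them. For Hif1an, rho named Ccndbp1 (1), Myh2 (0.994) and Aldh3b1 (0.9762), a different set from the 3 genes named by r.

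**Figure D4:**
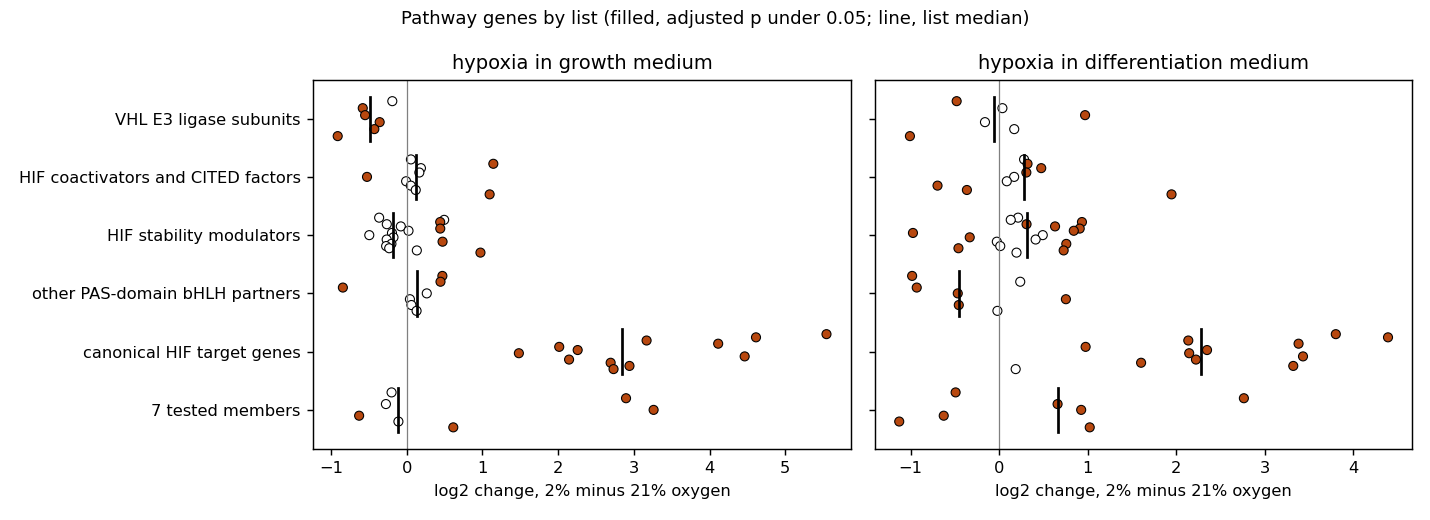
Fitted log2 change with hypoxia (horizontal axes) in growth medium (left) and differentiation medium (right) for the tested genes of 5 pathway lists and the 7 tested members; each point is a gene, filled where its adjusted p is under 0.05, and vertical lines are list medians. The canonical targets have a median of 2.84 in growth medium and 2.29 in differentiation medium, and the medians of the 4 other lists lie between −0.49 and 0.31.

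The other genes of the pathway were taken from 5 lists of 58 genes in all. The shares of all genes called higher and lower, given above for the members, are the background for list counts on the deposited scale. Rescaling moved this background too, as the shares of calls that were higher show above. List counts with a library left out have no background share beside them. The 12 canonical HIF targets, such as the glucose transporter gene Slc2a1 and the mitophagy gene Bnip3, are widely used as transcript readouts of HIF. All 12 rose with hypoxia in growth medium (median of 2.84 against −0.14 over all genes), and 11 of 12 rose in differentiation medium (median of 2.29 against 0.15). Adm, which encodes the vasodilator adrenomedullin, had the largest change in growth medium, from 0.211 and 0.0815 FPKM to 52.4 and 52.5 FPKM. In differentiation medium the largest was Ankrd37, from 7.32 and 4.97 to 172 and 126 FPKM. Differentiation in normoxia raised 7 of 12 and lowered 0 (median of 0.64 against −0.20), with Adm at 6.87 and 5.52 FPKM, and differentiation in hypoxia raised 3 and lowered 1 (median of 0.02 against 0.07). For the interaction 7 of 12 were lower and 1 higher (median of −0.88 against 0.27), led by Vegfa at −2.55 ± 0.21 (adjusted p of 0.000145 from limma). Vegfa, the gene of the angiogenic factor, stood at 70.7 and 72.2 FPKM in normoxic growth medium, 476 and 485 in hypoxic growth medium, 332 and 309.7 in the normoxic differentiation libraries, and 429.9 and 309.6 in hypoxic differentiation medium. Its values, like those of Egln3, were low in normoxic growth medium only. Without hypoxic differentiation library A differentiation in hypoxia raised 3 and lowered 3 of the targets, and without library B it raised 4 and lowered 0. The interaction without library B had 2 higher and 6 lower.

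Of the 6 subunits and partners of the VHL ubiquitin ligase, 5 fell with hypoxia in growth medium (median of −0.49 against −0.14 over all genes), while Vhl itself rose. Of all genes, 28.0% were called lower in this comparison. The number of the 6 that fell was 3 with either rescaling of the libraries. Ube2d1, a ubiquitin-conjugating enzyme, fell from 45.3 and 43.5 to 23.6 and 22.6 FPKM in growth medium (−0.91 ± 0.07, adjusted p of 0.000205 from limma) and from 47.7 in both libraries to 23.5 and 22.9 FPKM in differentiation medium (−1.01 ± 0.07, adjusted p of 2.84e-05). In differentiation medium 1 of 6 rose with hypoxia and 2 fell (median of −0.06 against 0.15). The riser was Rbx1, the RING subunit, which went from 42.1 and 42.7 to 86.1 and 82.2 FPKM there and from 66.9 and 62.5 to 45.0 and 42.7 FPKM with hypoxia in growth medium. Its responses to oxygen differed by 1.52 ± 0.10 (adjusted p of 6.54e-05). With differentiation, 2 of 6 rose and 1 fell in normoxia (median of 0.19 against −0.20; 5 rose and 1 fell with median-of-ratios scaling), led by the scaffold gene Cul2 at 0.93 ± 0.12 (adjusted p of 0.00065). In hypoxia 5 of 6 rose and 0 fell (median of 0.68 against 0.07), beside 23.3% of all genes called higher and 17.6% lower. The largest of these changes was that of Rbx1, 0.93 ± 0.07 (adjusted p of 0.000423 from limma). For the interaction 3 of 6 were higher and 0 lower (median of 0.40 against 0.27), but with median-of-ratios scaling 1 was higher and 2 were lower. Of all genes called for the interaction, 65.5% were higher as deposited and 47.3% with that scaling. For differentiation in normoxia these shares were 38.4% and 53.6%.

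Among 9 tested genes for HIF coactivators and the competing CITED factors, the counts of higher and lower genes were 2 and 1 for hypoxia in growth medium, 4 and 2 in differentiation medium, 1 and 2 for differentiation in normoxia, 0 and 2 for differentiation in hypoxia, and 2 and 2 for the interaction. The shares of all genes called higher and lower, given above for the members, are the background for these counts and for the deposited-scale counts of the lists below. In the same order, the list medians were 0.12, 0.28, −0.09, −0.02 and 0.14, against −0.14, 0.15, −0.20, 0.07 and 0.27 over all genes. With median-of-ratios scaling, 1 rose and 2 fell with hypoxia in differentiation medium, 3 rose and 1 fell with differentiation in normoxia, and 1 was higher and 3 lower for the interaction. Without hypoxic differentiation library A or B, the genes that fell with differentiation in hypoxia numbered 1 or 3, and those that rose and fell with differentiation in normoxia 2 and 3 in either case. Cited2, which encodes a competitor of HIF for its coactivators and is a known HIF target, rose with hypoxia in growth medium from 72.3 and 66.8 to 158 and 151 FPKM (1.14 ± 0.10, adjusted p of 0.000277 from limma). With differentiation in hypoxia Cited2 changed by −0.58 ± 0.10 (adjusted p of 0.00433 from limma). Its responses to oxygen differed between the media by −0.82 ± 0.14 (adjusted p of 0.00257). Pkm, the pyruvate kinase gene whose M2 product binds HIF-1, rose with hypoxia in differentiation medium from 913 and 803 to 3541 and 3088 FPKM (1.95 ± 0.13, adjusted p of 2.69e-05). It also rose with hypoxia in growth medium (1.09 ± 0.13, 2.13-fold, adjusted p of 0.00105 from limma). Pkm had the largest called interaction of the list, 0.85 ± 0.18 (adjusted p of 0.00801). Ncoa1 had the largest change with differentiation in normoxia, 0.61 ± 0.12 (adjusted p of 0.00375).

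Among 17 genes for modulators of HIF stability, the counts of higher and lower genes were 4 and 0 for hypoxia in growth medium, 7 and 3 in differentiation medium, 3 and 7 for differentiation in normoxia, 1 and 3 for differentiation in hypoxia, and 8 and 3 for the interaction. The 7 of 17 higher with hypoxia in differentiation medium and the 7 of 17 lower with differentiation in normoxia stand beside 37.5% and 41.0% of all genes. The list medians were −0.18, 0.31, −0.32, −0.03 and 0.49, in that order. The last count became 2 and 4 with median-of-ratios scaling and 4 and 4 with upper-quartile scaling. Differentiation in hypoxia gave 4 and 5 without hypoxic differentiation library A and 1 and 4 without library B. With either library left out, hypoxia in growth medium, which does not compare them but shares their estimate of the spread, gave 5 and 5. Wsb1, a ubiquitin ligase gene, rose with hypoxia in growth medium from 42.8 and 46.3 to 93.6 and 83.5 FPKM (0.97 ± 0.09, adjusted p of 0.000438 from limma). P4htm, which encodes a transmembrane prolyl hydroxylase that can act on HIF, fell with differentiation in normoxia from 3.75 and 3.16 to 0.708 and 0.689 FPKM (−1.39 ± 0.12, adjusted p of 9.56e-05), the same direction as Egln2. Rwdd3, a sumoylation enhancer, changed by −0.98 with hypoxia in differentiation medium (adjusted p of 0.000795), and the chaperone gene Hsp90aa1 by 0.96 with differentiation in hypoxia (adjusted p of 0.00201). Senp1, a SUMO protease, led the interaction at 0.99 (adjusted p of 0.0353), with hypoxic differentiation libraries at 4.20 and 7.60 FPKM, far apart from each other.

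Of 12 genes for other factors of the same bHLH-PAS family as the HIF subunits, 7 were tested. The counts of higher and lower genes were 2 and 1 for hypoxia in growth medium, 1 and 4 in differentiation medium, 2 and 3 for differentiation in normoxia, 0 and 3 for differentiation in hypoxia, and 0 and 2 for the interaction. The list medians were 0.13, −0.46, 0.06, −0.35 and −0.21, in that order. Without hypoxic differentiation library B, 0 rose and 5 fell with differentiation in hypoxia. Arnt2, the paralog of Arnt, was at 2.24 and 2.41 FPKM in normoxic and 0.865 and 0.838 FPKM in hypoxic growth medium (−0.84 ± 0.11, adjusted p of 0.00145 from limma). Arnt2 was below Arnt in every library. Ahr, the dioxin receptor gene and another ARNT partner, went from 3.55 and 3.73 to 1.22 and 1.48 FPKM with hypoxia in differentiation medium (−0.98 ± 0.15, adjusted p of 0.00138). In growth medium Ahr rose by 0.47 with hypoxia, and its responses to oxygen differed by −1.45 ± 0.22 (adjusted p of 0.00178). With differentiation in hypoxia Ahr changed by −1.39 ± 0.15 (adjusted p of 0.00116 from limma). Arntl2 had the largest change with differentiation in normoxia, −1.06 (adjusted p of 0.00411).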

How the data were processed

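The authors deposited 1 table of FPKM values, per the file headers with 1 column for each of the 8 RNA-seq libraries. STAR 2.5.1b, Cufflinks 2.2.1 and the build mm9 are named in the submitters' processing notes. The annotation, strand handling during counting and whether libraries were scaled to each other are not given in the sources used here. Per the labels' protocols, 500 ng of RNA entered a stranded total RNA kit. Absolute depth is unknown. The FPKM sums were 480018 to 534167 per library, and genes above 0 numbered 14917 to 15672.

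From the deposited FPKM, log2(FPKM + 1) was fitted with limma 3.58.1 (R 4.3.3), with a mean for each of the 4 groups, a trended variance prior and 5 contrasts over 8 libraries. This left 4 residual degrees of freedom and added 2.61 prior ones. The filter kept 12389 of 24043 genes, and p-values were adjusted by Benjamini-Hochberg over these at a threshold of 0.05. The test was also run on simulated data with known changes, and its outcome is not given here. Log2 changes understate the change of low genes because of the pseudocount, and folds are ratios of mean FPKM. P-values measure the spread between libraries called biological replicates, without further detail on their origin. The members, the lists and the tests were chosen with earlier results of these data known. The genes named were the 9 members, the gene with the largest called change in each list and comparison, and the 3 genes most like each member that spanned at least 1 on the log2 scale. Others named were chosen after their values were seen. Alternatives covered the pseudocount, the filter, 2 scalings, array weights, a replicate block, separate fits, a fold requirement and each library left out. Counts of the pathway lists under both scalings, and without each hypoxic differentiation library, were added after seeing the data.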

Additional observations from a re-analysis of the deposited data

Results flagged for a closer look

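The response to oxygen differed between growth and differentiation medium for 4 of the 7 tested members, by the interaction term of the limma fit. The same term was called for 54.1% of all 12389 tested genes, so the count is not particular to the members. Within differentiation medium the oxygen levels also differed in myotube RNA. The summed myotube markers were 7004 and 7014 FPKM in the normoxic libraries and 15.3 and 8.66 in the hypoxic ones. The part of this difference in the interaction was not tested, and the design cannot tell it apart from a response to oxygen. The difference, differentiation medium minus growth medium on the log2 scale, was −2.33 for Egln3, −1.02 for Hif1an, 0.94 for Egln2 and 0.41 for Vhl. The values of Egln3, Hif1an and Egln2 passed with both rescalings of the libraries, and that of Vhl did not. With 2 libraries per condition, the gap-to-range test for an outlying library, which needs 4 or more, was not applied.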

How the results depend on the processing

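Of 518 refitted member changes under alternative settings, 468 kept their direction and their side of the threshold, 30 lost the call, 7 gained one and 13 changed sign, none of which was called with the deposited scale and all libraries. Median-of-ratios scaling turned Arnt for differentiation in normoxia to 0.11, Hif1an for differentiation in hypoxia to −0.013 and the Hif1a interaction to −0.32. Upper-quartile scaling turned Hif1an for hypoxia in growth medium to 0.045, Egln2 and Hif1an for differentiation in hypoxia to −0.035 and −0.053, and the Hif1a interaction to −0.22. With each library left out in turn, the Hif1a interaction ranged from −0.22 to 0.23, the Egln1 interaction from −0.38 to 0.12, and the change of Hif1an for differentiation in hypoxia from −0.026 to 0.087. The number of members called then ranged from 3 to 6 for differentiation in normoxia and from 1 to 5 for differentiation in hypoxia, where the hypoxic libraries alone gave 2. A log2 change of at least 1 besides the adjusted p left 2 members for hypoxia in growth medium, 3 for hypoxia in differentiation medium, 2 for differentiation in normoxia, 0 for differentiation in hypoxia and 2 for the interaction. The genes called over all tested were then 1268 of 5135, 3420 of 8075, 3542 of 8241, 925 of 5073 and 3410 of 6707. Without hypoxic growth library A or B they were 2997 and 3083 for hypoxia in growth medium and 2688 and 2501 for differentiation in hypoxia, where the hypoxic libraries alone gave 3034. When a library is left out, the lone remaining one is assumed to vary like the other groups. Libraries of the same letter showed no shared shift between conditions (correlations of deviations from −0.166 to 0.042). Whether libraries of the same letter were handled together is not stated, and these correlations cannot settle it. The fit with the replicate block called 4, 7, 6, 4 and 4 members, in the order above, the same numbers as without it. With the filter removed, Epas1 and Hif3a entered the test. The share of member promoters with the letters was 4 of 9 with ACGTG alone, against 7 of 9. The 2 libraries per condition and an unknown depth limit small changes and low levels.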
